A study of Sus scrofa with 11 samples.

Results

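The integrin and laminin genes of porcine coronary artery were followed from native vessels into 4 kinds of bioreactor culture. Members were all genes with a pig symbol of the form ITGA, ITGB, LAMA, LAMB or LAMC plus its chain name, with at least 10 counts in 2 or more of 11 RNA sequencing libraries. Of 25880 gene identifiers in the count tables, 37 had such a symbol and 35 met the count rule. They comprised 22 integrin subunits, 10 laminin chains and 3 genes that the symbol pattern takes in although they encode no integrin subunit, namely ITGB1BP1, ITGB1BP2 and ITGBL1. All 35 passed the low-count filter of the test.

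Native arteries gave 2 libraries. In the bioreactor, stented vessels were held without flow (stented static, 2 libraries) or under the stronger of the flow marks used in the labels (stented high-flow, 3 libraries, also written as with stent and flow), and unstented vessels were held under the stronger mark (high-flow, 2 libraries) or the weaker one (low-flow, 2 libraries). No transgene, drug or strain is named in the labels, and the sources used here give neither age, sex nor stent material. Because nothing states that libraries of a group represent different animals, each p-value reflects only how much these samples vary, and that variation may be technical. Levels are CPM, the usual depth-normalised counts, here on TMM-scaled library sizes, given per library or as mean ± SD with n = 2, or n = 3 in stented high-flow. Differences are log2 fold changes ± standard error with adjusted p-values from edgeR's quasi-likelihood test over 15348 genes, and a gene is called where that p is under 0.05.

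Integrins are cell surface receptors made of 1 alpha and 1 beta chain that tie the cytoskeleton to the surrounding matrix. The alpha chain largely sets which ligand is bound, such as collagen, laminin or proteins with an RGD sequence like fibronectin. Laminins are trimers of an alpha, a beta and a gamma chain and form the sheet-like base of basement membranes, which in arteries lie under the endothelium and around each medial smooth muscle cell. Smooth muscle that leaves the contractile state is known to change both its matrix and the integrins it carries.

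Library totals ran from 13496636 to 26785124 counts, so 3 counts stood for 0.105 to 0.215 CPM. Summed contractile smooth muscle markers (10 of 10 detected in every library) were 30709 to 37469 CPM in native and 569 to 7701 CPM in the cultured libraries, and summed Schwann cell markers (6 of 6 detected) 793 to 867 CPM in native and 17.7 to 179 CPM in culture. Endothelial markers (8 of 8 detected) stood at 893 to 1041 CPM in native, 1107 CPM in stented static replicate 1 and 358 to 809 CPM in the other 8 cultured libraries, and 5 of 8 (PECAM1, TEK, TIE1, KDR and ESAM) were called lower in stented high-flow. Stented static replicate 1 stood apart from replicate 2 in several lists. Its contractile sum was 569 CPM against 3007 CPM, its macrophage sum 2357 against 1010.3 CPM, its endothelial sum 1107 against 444 CPM, and its adipocyte sum 1994 against 131 CPM. Adipocyte sums were 1261 to 1978 CPM in native and 25.6 to 216 CPM in the flow groups. The part of these marker differences in the members' values was not tested. Cardiomyocyte markers differed between the native libraries, with 877 CPM in the first replicate and 83.5 CPM in the second, and were 2.44 to 50.6 CPM in culture. The Y-linked gene EIF1AY had 237 to 470 counts in each native, stented high-flow and high-flow library, and 0 or 1 in the stented static and low-flow ones, so comparisons across that line cannot be told apart from a difference in Y-linked transcripts. In whole vessels fewer cells of a type and less RNA per cell cannot be told apart either.

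Against native, 7 of 35 members (20%) were called in stented static vessels, where 12.7% of all genes tested were called. They split into 2 higher and 5 lower, against 5.54% and 7.19% of all genes. In stented high-flow vessels 14 members (40%) were called, against 24.3% of all genes, and they split into 4 higher and 10 lower, against 10.4% and 13.9%. High-flow vessels had 11 called members (31.4%), against 14.8%, of which 4 were higher and 7 lower, against 5.94% and 8.86%. Low-flow vessels had 7 (20%), against 12.4%, of which 4 were higher and 3 lower, against 5.03% and 7.38%. The members' median log2 fold changes were -0.66, -0.95, -0.52 and -0.08 in that order, and those of all genes 0.02, 0.06, 0.02 and -0.00. These 4 comparisons share the native libraries. Without native replicate 1 the counts of called members in that order were 2, 9, 4 and 3, and without native replicate 2 they were 2, 10, 6 and 2.

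**Figure D1:**
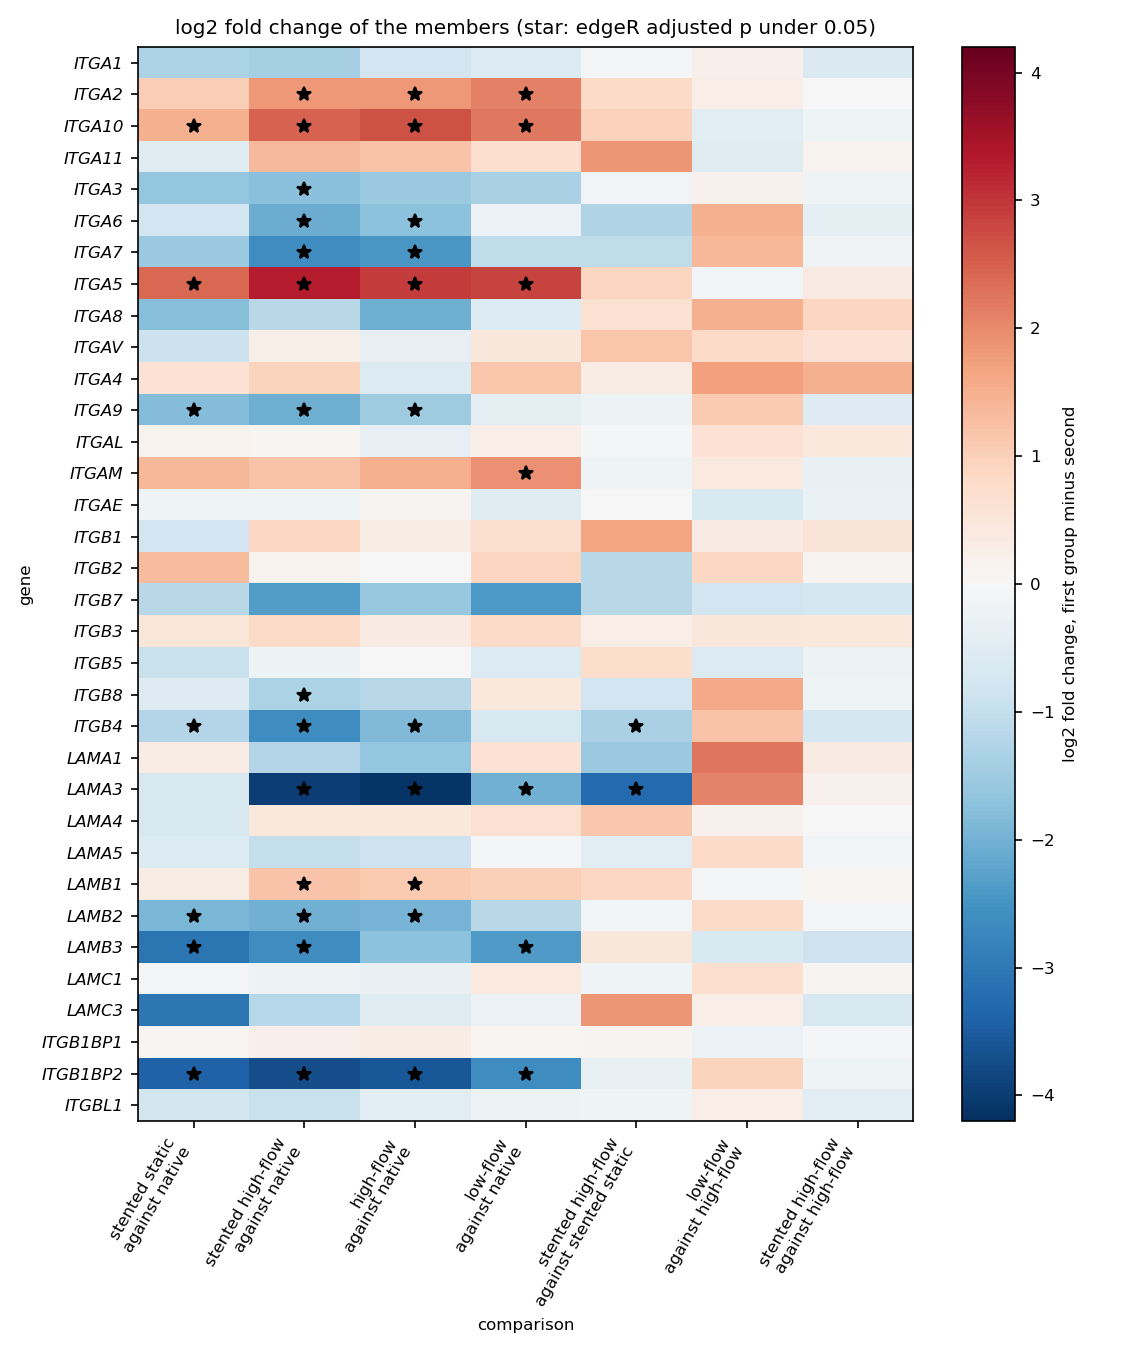
Log2 fold change (colour) of the members (rows, ordered by role, 1 member not shown) in the 7 comparisons (columns), first group minus second. Stars mark an edgeR adjusted p under 0.05. ITGA5 and ITGA10 carry a star in all 4 columns against native on the higher side and ITGB1BP2 on the lower side, and the 2 right-hand columns have no star.

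Among alpha chains for RGD ligands, ITGA5 rose in every cultured group while ITGA8 and ITGAV did not pass the test in any. ITGA5 (chromosome 5, 19587361 to 19610580 in Sscrofa11.1), the alpha chain of the classical fibronectin receptor, stood at 147 and 180.3 CPM in the native libraries. Stented static vessels had 939 and 817 CPM, the 3 stented high-flow libraries 1648, 1434 and 1806 CPM, the unstented high-flow pair 1082 and 1431 CPM, and the low-flow pair 1202 and 1125 CPM. Every cultured library lay above both native ones. Listing stented static, stented high-flow, high-flow, then low-flow, the rise was 5.36-, 9.94-, 7.67- and 7.10-fold. The log2 fold changes were 2.42 ± 0.29, 3.31 ± 0.30, 2.94 ± 0.30 and 2.83 ± 0.30 (edgeR adjusted p = 0.000947, 0.000115, 0.000570 and 0.000505). These 4 calls held in each of the alternatives run for them, including the omission of any single library of the groups compared. ITGA5 is also in all 4 of the authors' deposited tables of changed genes, with log2 fold changes of 2.42, 3.31, 2.94 and 2.83.

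ITGA8 (chromosome 10, 46132887 to 46303659), an RGD-binding chain that is abundant in vascular smooth muscle, was at 526 and 592 CPM in native. Its stented static libraries were far apart, at 20.5 and 302 CPM, and these libraries also differed in marker sums as given above. With flow and a stent the values were 355, 229.7 and 164 CPM, in high-flow 89.9 and 177 CPM and in low-flow 374 and 378 CPM. All 9 cultured libraries lay below both native ones, yet no comparison passed in the joint fit. In the group order used for ITGA5 the log2 fold changes were -1.79 ± 0.86, -1.16 ± 0.75, -2.06 ± 0.87 and -0.57 ± 0.83 (edgeR adjusted p = 0.191, 0.288, 0.133 and 0.702). Without stented static replicate 2 the first of these was -4.77 (adjusted p = 0.00180). The authors' deposited table for high-flow lists ITGA8 at -2.06, and DESeq2 called it there (adjusted p = 0.0380). With edgeR ITGA8 passed in high-flow without the low-count filter (adjusted p = 0.0416), with only the groups compared (0.00868) or with 1 count table (0.00358). In stented high-flow it passed with edgeR when only the groups compared were fitted (0.0468). ITGAV, which pairs with several beta chains, ranged from 36.9 to 222 CPM over all libraries, and its log2 fold changes against native ran from -0.91 ± 0.53 to 0.47 ± 0.52.

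Of the 4 collagen-binding alpha chains, 1 was higher in stented static and 2 were higher in each of the other cultured groups, and 0 were lower. Of all genes, 5.54% were called higher in stented static, 10.4% in stented high-flow, 5.94% in high-flow and 5.03% in low-flow. ITGA10 (chromosome 4, 99422469 to 99440756), best known from cartilage, had 11.3 and 8.97 CPM in native. It reached 29.3 and 27.9 CPM in the stented static pair, 57.5, 69.7 and 42.3 CPM with stent and flow, 65.4 and 64.0 CPM in high-flow, and 45.2 and 50.1 CPM in low-flow. Native libraries were the lowest and the stented static ones the next lowest, with no overlap between them or with the flow groups. The log2 fold changes in the same order were 1.49 ± 0.29, 2.48 ± 0.28, 2.67 ± 0.30 and 2.23 ± 0.30 (edgeR adjusted p = 0.00881, 0.000289, 0.000699 and 0.00151), of which the first was lost without native replicate 2 (0.0853).

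ITGA2 (chromosome 16, 32336240 to 32440311), a collagen receptor chain known from platelets and epithelia, had 7.49 and 3.68 CPM in native and 10.0 and 12.6 CPM in stented static. Libraries with stent and flow had 20.02, 23 and 15.9 CPM, high-flow ones 27.8 and 11.96 CPM, and low-flow ones 30.4 and 17.8 CPM. No cultured library was as low as native. Platelet markers (4 of 5 matched) summed to 3.34 to 4.36 CPM in native and 2.62 to 5.14 CPM in stented static. They were at 6.98 to 10.8 CPM with stent and flow, 7.68 to 11.09 CPM in high-flow and 4.97 to 5.59 CPM in low-flow. PPBP of this list, with 179 counts in all, was called higher against native in each flow group and not in stented static. The part of these markers in the ITGA2 values was not tested. ITGA2 rose by 1.82 ± 0.46, 1.83 ± 0.49 and 2.11 ± 0.49 in the 3 flow groups (edgeR adjusted p = 0.0159, 0.0282 and 0.0194) and was at 1.02 ± 0.48 in stented static (0.184). The native libraries differed, and without replicate 2 none of the 3 calls held (adjusted p = 0.140, 0.187 and 0.147). The high-flow call was also lost without native replicate 1 (0.0554) or high-flow replicate 1, where the log2 fold change was 1.10 (0.224), and the low-flow one without low-flow replicate 1 (0.144).

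ITGA1, whose gene lies 26.3 kb from that of ITGA2 on chromosome 16, had 90.4 and 91.1 CPM in native and 13.5 to 70.1 CPM in culture, below native in all 9 libraries. It did not pass in any comparison, with log2 fold changes against native of -1.32 ± 0.67, -1.41 ± 0.60, -0.79 ± 0.67 and -0.57 ± 0.66. Without stented high-flow replicate 1 its value in that group was -2.22 (edgeR adjusted p = 0.0139). ITGA11, a fibrillar collagen receptor of fibroblasts, was at 48.2 ± 3.75 CPM in native, 33.6 ± 16.4 CPM in stented static, 122 ± 49.1 CPM with stent and flow, 112 ± 65.3 CPM in high-flow and 78.4 ± 2.97 CPM in low-flow. It passed nowhere in the joint fit, with the smallest edgeR adjusted p at 0.0519 for stented high-flow against native (log2 fold change 1.35 ± 0.45), and without stented high-flow replicate 1 that p was 0.0307. This comparison also passed with DESeq2 (adjusted p = 0.0184). With edgeR it passed when no low-count filter was used (0.0188) or only the groups compared were fitted (0.0379). Fibroblast markers (6 of 6 detected) summed to 2722 to 2967 CPM in native, 1446 to 3326 CPM in stented static, 3703 to 6347 CPM with stent and flow and 2605 to 3213 CPM in low-flow. In high-flow replicates 1 and 2 they were 5650.4 and 2800.1 CPM, where ITGA11 was at 158 and 65.5 CPM. Members of this list moved in opposite directions. With stent and flow PDGFRA and LUM were called higher against native and PI16 and MFAP5 lower. PDGFRA was called higher and PI16 lower in the other cultured groups too. In the group order used for ITGA5 the list's median log2 fold changes were -0.95, -0.53, -0.66 and -1.06. The part of these markers in the ITGA11 values was not tested.

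**Figure D2:**
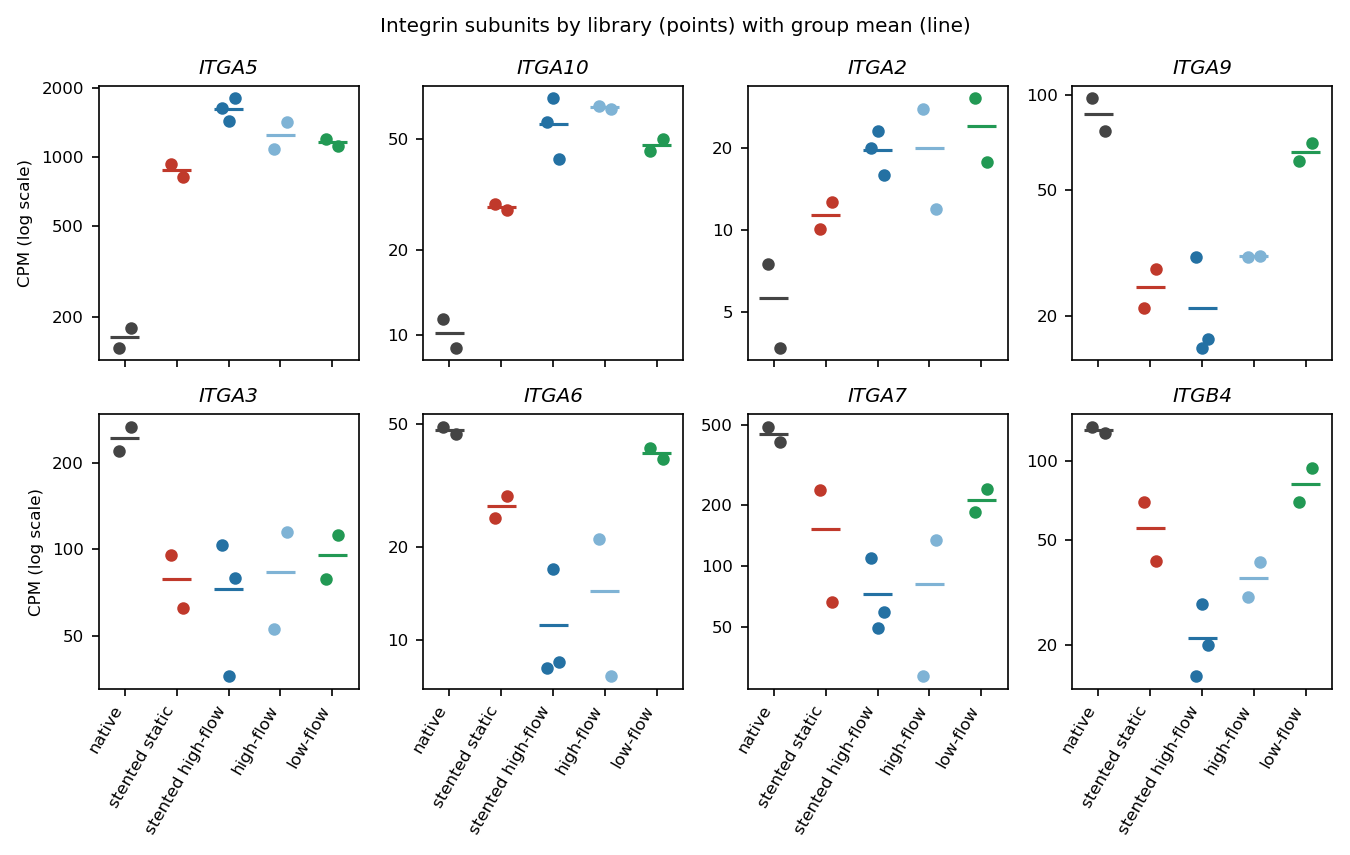
Normalised counts (CPM, log axis, scaled per panel) of 8 integrin subunits in each library (points) of the 5 groups, with the group mean as a line. All cultured libraries lie above native for ITGA5, ITGA10 and ITGA2 and below native for ITGA9, ITGA3, ITGA6, ITGA7 and ITGB4, where the low-flow points are the nearest to native for ITGA6 (41.8 and 38.7 CPM) and ITGA9 (61.7 and 70.5 CPM).

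All 3 laminin-binding alpha chains fell in stented high-flow and 2 of them in high-flow, while 0 of 3 passed in stented static or low-flow in the joint fit. Lower calls over all genes in these groups made up 13.9%, 8.86%, 7.19% and 7.38%, in that order. ITGA7 (chromosome 5, 21126565 to 21150875), the laminin receptor chain of muscle, was at 488 and 409 CPM in native. Stented static libraries had 238 and 66.8 CPM, those with stent and flow 110.1, 49.6 and 59.7 CPM, high-flow ones 28.7 and 135 CPM, and low-flow ones 185 and 241 CPM. All cultured libraries were below native, with a wide gap within stented static and within high-flow. The gene changed by -2.62 ± 0.63 with stent and flow and by -2.46 ± 0.73 in high-flow (edgeR adjusted p = 0.0130 and 0.0441), and stood at -1.56 ± 0.70 in stented static (0.168) and -1.08 ± 0.70 in low-flow (0.341). The first of these calls was lost without native replicate 1 (0.0713) or stented high-flow replicate 2 (0.0515), and with a replicate block (0.0527). The high-flow call was lost on omitting native replicate 1 (0.153), native replicate 2 (0.119) or high-flow replicate 1 (0.197), and with the block (0.0703). In low-flow ITGA7 passed with edgeR when only the groups compared were fitted (log2 fold change -1.07, adjusted p = 0.00595). Contractile markers, given above, were also lower in every cultured library, and their part in the ITGA7 values was not tested.

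ITGA6 (chromosome 15, 78504108 to 78591779), which pairs with ITGB1 or ITGB4, had 49.0 and 46.5 CPM in native and 24.8 and 29.4 CPM in stented static. With stent and flow it was at 8.11, 17.1 and 8.53 CPM, in high-flow at 21.3 and 7.65 CPM, and in low-flow at 41.8 and 38.7 CPM. The 5 libraries under high flow, stented or not, were the 5 lowest. Against native it changed by -2.09 ± 0.42 with stent and flow (edgeR adjusted p = 0.00563) and by -1.72 ± 0.48 in high-flow (0.0342), the latter lost on omitting native replicate 1 (0.132), native replicate 2 (0.127) or high-flow replicate 2 (log2 fold change -1.14, 0.160). Low-flow was at -0.25 ± 0.46 and stented static at -0.82 ± 0.47, neither passing. ITGA3 was at 244.1 ± 33.6 CPM in native and 72.9 ± 34.1 to 95.6 ± 23.8 CPM in the cultured groups. Its log2 fold changes were -1.63, -1.74, -1.55 and -1.35, and only that for stented high-flow passed (edgeR adjusted p = 0.0158). Omitting either native replicate ended that call (0.0584 without the first, 0.0975 without the second). The values for stented static, high-flow and low-flow passed with DESeq2 (adjusted p = 0.0123, 0.0151 and 0.0432). They also passed with edgeR when no low-count filter was used (0.0167, 0.0206 and 0.0495) and when only the groups compared were fitted (0.0315, 0.0299 and 0.00280).

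ITGB4 (chromosome 12, 5651292 to 5685601), the partner of ITGA6 in hemidesmosomes and in Schwann cells, was at 134 and 127 CPM in native. Stented static libraries had 69.4 and 41.5 CPM, those with stent and flow 15.3, 28.7 and 20.1 CPM, high-flow ones 30.4 and 41.4 CPM, and low-flow ones 69.8 and 93.4 CPM. Native was highest, and the stented high-flow libraries were the 3 lowest. ITGB4 changed by -1.24 ± 0.36 in stented static, by -2.61 ± 0.33 with stent and flow and by -1.87 ± 0.37 in high-flow (edgeR adjusted p = 0.0460, 0.000434 and 0.00794), and was at -0.68 ± 0.36 in low-flow (0.236). Low-flow passed with edgeR when only the groups compared were fitted (log2 fold change -0.67, adjusted p = 0.0459). The stented static call was lost on leaving out any 1 of its 4 libraries (0.0561 to 0.178), with a replicate block (0.0664) or with only the groups compared (0.0719), and the high-flow one without high-flow replicate 1 (0.0750), while the stented high-flow call held in all 11 alternatives. Schwann cell markers summed to 115 to 135 CPM in stented static, 17.7 to 44.8 CPM with stent and flow, 34.1 to 57.3 CPM in high-flow and 119 to 179 CPM in low-flow, and their part in the ITGB4 and ITGA6 values was not tested.

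ITGB1, the beta chain shared by most matrix receptors, passed in no comparison. Its native libraries had 651 and 1052 CPM, the stented static ones 299 and 679.9 CPM, the 3 with stent and flow 1783, 1579.6 and 1279.6 CPM, the high-flow ones 1446 and 691 CPM, and the low-flow ones 1495 and 1203 CPM. Stented high-flow and low-flow lay above native, while stented static and high-flow overlapped it. The log2 fold changes against native were -0.80 ± 0.46, 0.86 ± 0.43, 0.33 ± 0.46 and 0.66 ± 0.46. The ratio of ITGA5 to ITGB1 counts within a library, in which scaling and transcript length cancel between libraries, was 0.227 and 0.171 in native and 0.748 to 3.14 in the 9 cultured libraries. This ratio and those below were chosen after the values were seen and carry no test.

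Of the 3 measured beta chains that pair with ITGAV, 1 was called against native, in 1 group. It was lower in stented high-flow, where 13.9% of all genes were called lower. ITGB8, which takes part in activation of latent TGF-beta, changed by -1.33 ± 0.43 with stent and flow (16.4 ± 0.382 CPM in native, 6.51 ± 1.76 CPM there, edgeR adjusted p = 0.0439). That call was lost without native replicate 1 (0.153) or 2 (0.166), or without stented high-flow replicate 2 (0.0956) or 3 (0.108), and with a replicate block (0.146). In low-flow ITGB8 was at 22.0 ± 5.28 CPM. ITGB3, the vitronectin and fibrinogen receptor chain, was at 46.8 ± 5.40 CPM in native and 58.9 ± 13.8 to 81.9 ± 2.41 CPM in culture, and did not pass in the joint fit. It passed in stented high-flow with DESeq2 (adjusted p = 0.0461). In low-flow it passed with edgeR when only the groups compared (0.0163) or 1 count table (0.0466) were fitted. ITGB5, another vitronectin receptor chain, was at 317 ± 9.94 CPM in native and 165 ± 25.8 to 319 ± 93.2 CPM in culture, and did not pass in the joint fit either. In stented static it was lower with DESeq2 (log2 fold change -0.95, adjusted p = 0.0179).

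ITGA9 (chromosome 13, 22298497 to 22655717), a receptor chain for tenascin and osteopontin, had 97.3 and 76.9 CPM in native. Stented static libraries had 21.1 and 28.04 CPM, those with stent and flow 30.6, 15.8 and 16.9 CPM, high-flow ones 30.6 and 30.9 CPM, and low-flow ones 61.7 and 70.5 CPM. The low-flow libraries lay between native and all other cultured libraries. ITGA9 changed by -1.83 ± 0.35 in stented static, by -2.05 ± 0.31 with stent and flow and by -1.5 ± 0.35 in high-flow (edgeR adjusted p = 0.00826, 0.00114 and 0.0160), and was at -0.40 ± 0.34 in low-flow (0.480). The high-flow call was lost on omitting any 1 of its 4 libraries (0.0517 to 0.104) and the stented static one without native replicate 1 (0.0615) or stented static replicate 1 (0.0593). Its relative ITGA4, found mainly on leukocytes, ranged from 0.616 to 9.76 CPM and did not pass.

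Leukocyte integrins were measured as ITGAL, ITGAM, ITGAE, ITGB2 and ITGB7, of which 1 was called, higher in low-flow, where 5.03% of all genes were called higher. ITGAM, the alpha chain of complement receptor CR3 on macrophages and neutrophils, had 14.6 and 11.3 CPM in native and 18.2 to 63.5 CPM in culture, above native in all 9 libraries. It rose by 1.93 ± 0.53 in low-flow (edgeR adjusted p = 0.0374), a call lost on omitting any 1 of its 4 libraries (0.0786 to 0.221) and with a replicate block (0.0524). In the other cultured groups the values were 1.38 ± 0.52, 1.21 ± 0.49 and 1.52 ± 0.53, none called, although high-flow passed with DESeq2 (adjusted p = 0.0337). Its partner ITGB2 had 18.2 and 18.1 CPM in native, 68.7 and 22.1 CPM in stented static and 23.6 and 43.5 CPM in low-flow. With stent and flow it had 17.2, 12.7 and 30.4 CPM and in high-flow 24.5 and 12.4 CPM, both overlapping native. ITGB2 did not pass in the joint fit. Without stented static replicate 2 its log2 fold change in stented static was 1.92. In low-flow it passed with edgeR when only the groups compared were fitted (0.89, adjusted p = 0.0438). The macrophage marker sum (12 of 12 detected) was 559 to 571 CPM in native, 1010.3 to 2357 CPM in stented static, 391.8 to 834 CPM with stent and flow, 402 to 620.2 CPM in high-flow and 894 to 1115 CPM in low-flow. Members of this list moved in opposite directions against native. CD163 and MSR1 were called higher in every cultured group, and CD68 and CD14 in stented static only. CSF1R was called lower with stent and flow and in high-flow. Neutrophil markers (3 of 5 matched) summed to 0.521 to 0.748 CPM in native, 1.03 to 12.3 CPM in stented static, 2.65 to 5.81 CPM with stent and flow, 6.31 to 10.5 CPM in high-flow and 0.942 to 1.99 CPM in low-flow, above native in every cultured library. These sums rest on few counts (CSF3R 101, S100A8 259 and S100A12 621 in all), and no neutrophil marker was called in any comparison. The part of both lists in the ITGAM and ITGB2 values was not tested. ITGAL, the alpha chain of the lymphocyte integrin LFA-1, stayed between 13.1 and 27.3 CPM. Lymphocyte markers (9 of 9 matched, 3 to 9 detected in a library) summed to 33.7 to 39.9 CPM in native and 13.6 to 24.4 CPM in stented static. They were at 10.8 to 16.1 CPM with stent and flow, 11.7 to 21.8 CPM in high-flow and 11.6 to 15.3 CPM in low-flow. CD3E, CD2 and CD247 were called lower against native in each flow group, CD3E and CD2 from 74 and 57 counts in all. No gene of this list was called in stented static. Its part in the ITGAL, ITGAE and ITGB7 values was not tested. ITGAE was at 2.59 to 6.77 CPM. ITGB7, with 3 to 43 counts a library, had 2.80 and 1.55 CPM in native. Cultured libraries had 0.205 to 1.34 CPM of ITGB7, all below native. Its log2 fold change with stent and flow was -2.33 ± 0.78, not called (edgeR adjusted p = 0.0504). That value passed with DESeq2 (adjusted p = 0.0269). It also passed with edgeR on RLE size factors (0.0488), without the low-count filter (0.0399) or with only the groups compared (0.0414).

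Among the laminin beta chains LAMB1 rose and LAMB2 fell. LAMB1 (chromosome 9, 107670120 to 107747242) had 366 and 297 CPM in native and 352 and 467 CPM in stented static, which overlapped. The values with stent and flow were 651, 963 and 645 CPM, in high-flow 851 and 564 CPM, and in low-flow 693 and 634 CPM, all above native. LAMB1 rose by 1.18 ± 0.31 with stent and flow and by 1.09 ± 0.33 in high-flow (edgeR adjusted p = 0.0178 and 0.0458), and was at 0.30 ± 0.32 in stented static (0.573) and 1.00 ± 0.33 in low-flow (0.0689). Omitting native replicate 1 or 2 ended the stented high-flow call (0.0800 and 0.141) and the high-flow call (0.139 and 0.228), as did stented high-flow replicate 2 for the first (0.0622) and high-flow replicate 1 for the second (0.248). The high-flow call was also lost with a replicate block (0.0699), and low-flow passed with DESeq2 (adjusted p = 0.0237).

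LAMB2 (chromosome 13, 31738282 to 31750623), the beta chain typical of mature arterial and muscle basement membranes, was at 1076 and 981 CPM in native. Stented static libraries had 279.8 and 266 CPM, those with stent and flow 347, 206 and 210.1 CPM, high-flow ones 170.3 and 363 CPM, and low-flow ones 392.5 and 532 CPM. Native libraries were far above the rest, with low-flow next. LAMB2 changed by -1.91 ± 0.40 in stented static, by -2.02 ± 0.35 with stent and flow and by -1.95 ± 0.40 in high-flow (edgeR adjusted p = 0.0126, 0.00258 and 0.0100), and stood at -1.15 ± 0.39 in low-flow (0.0798), which passed with DESeq2 (adjusted p = 0.0271). The stented high-flow call held in all 11 alternatives. The stented static call did not hold without stented static replicate 1 (0.0635), native replicate 1 (0.0685) or native replicate 2 (0.0598), and the high-flow one without native replicate 1 (0.0571) or high-flow replicate 1 (0.0732). Counts of LAMB1 over those of LAMB2 in the same library were 0.340 and 0.303 in native. The stented static pair had 1.26 and 1.76, the libraries with stent and flow 1.88, 4.67 and 3.07, the high-flow pair 4.996 and 1.56 and the low-flow pair 1.77 and 1.19, so that each cultured library exceeded both native ones.

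**Figure D3:**
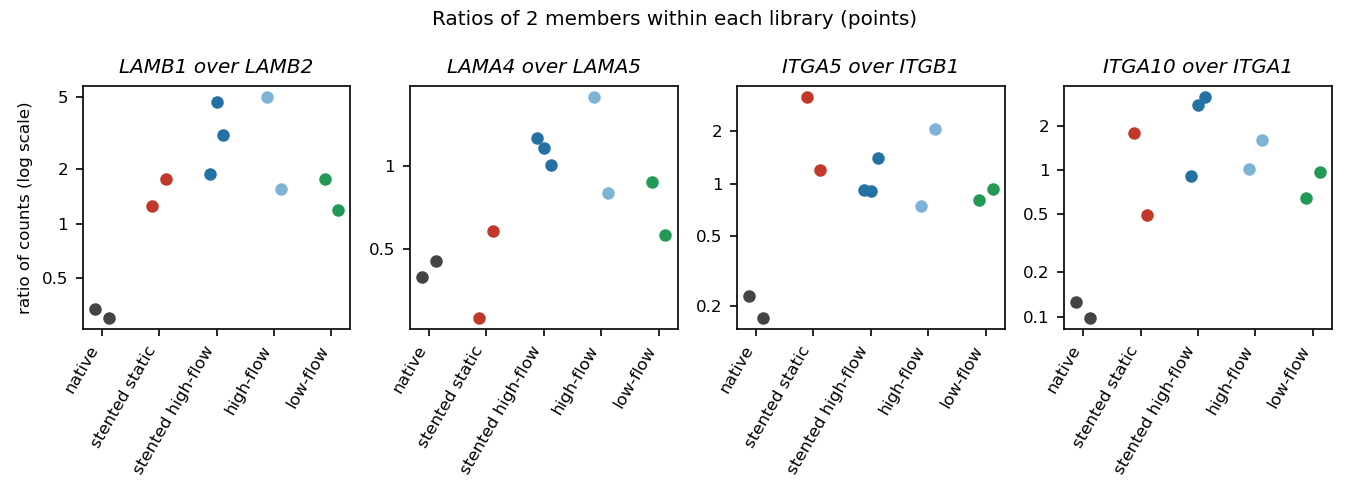
Ratio of the counts of 2 members within each library (points, log axis) for 4 pairs in the 5 groups. LAMB1 over LAMB2 is at most 0.340 in native and at least 1.19 in culture, ITGA5 over ITGB1 at most 0.227 and at least 0.748, and ITGA10 over ITGA1 at most 0.125 and at least 0.496, while LAMA4 over LAMA5 overlaps between native and stented static.

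LAMA3 and LAMB3, laminin chains best known from epithelial basement membranes, also fell. LAMA3 (chromosome 6, 108548818 to 108805700) had 24.9 and 23.1 CPM in native and 8.61 and 21.8 CPM in stented static. With stent and flow it was at 0.933, 2.75 and 0.984 CPM, in high-flow at 1.42 and 1.33 CPM, and in low-flow at 5.48 and 6.36 CPM. The groups formed steps with no overlap, from native through stented static and low-flow to the high-flow libraries with and without a stent, which overlapped each other. LAMA3 changed by -3.94 ± 0.52 with stent and flow and by -4.12 ± 0.62 in high-flow (edgeR adjusted p = 0.000645 and 0.00235), 15.3-fold and 17.3-fold lower, and both calls held in all alternatives run. In low-flow it changed by -2.02 ± 0.56 (0.0379), a call lost on omitting any 1 of its 4 libraries (0.135 to 0.217), and stented static was at -0.66 ± 0.54 (0.450). The sum of the 3 matched epithelial markers was 7.36 to 8.86 CPM in native and 3.60 to 15.9 CPM in culture. Its members moved in opposite directions, as CDH1 was called lower (-3.12 ± 0.63, -5.00 ± 0.61, -4.13 ± 0.67 and -4.22 ± 0.66) and KRT7 higher (4.05 ± 0.66, 4.23 ± 0.65, 3.40 ± 0.65 and 2.80 ± 0.65) in all 4 comparisons with native, in the group order used for ITGA5. Their part in the LAMA3 and LAMB3 values was not tested.

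LAMB3 (chromosome 9, 133298009 to 133351162) had 4.49 and 2.88 CPM in native. Stented static libraries had 0.277 and 0.608 CPM, those with stent and flow 0.359, 0.729 and 0.703 CPM, high-flow ones 0.712 and 1.49 CPM, and low-flow ones 0.428 and 0.979 CPM, from only 5 to 29 counts in a cultured library. All cultured libraries were below native. LAMB3 changed by -3.07 ± 0.73 in stented static, by -2.60 ± 0.62 with stent and flow and by -2.37 ± 0.69 in low-flow (edgeR adjusted p = 0.0220, 0.0124 and 0.0481), and was at -1.74 ± 0.68 in high-flow (0.110). Without native replicate 1 none of these 3 calls held (0.116, 0.0991 and 0.219). The stented static and low-flow calls were also lost without native replicate 2 (0.0696 and 0.115), the first without stented static replicate 1 (0.139) and the last without low-flow replicate 1 (0.287) or 2 (0.119).

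**Figure D4:**
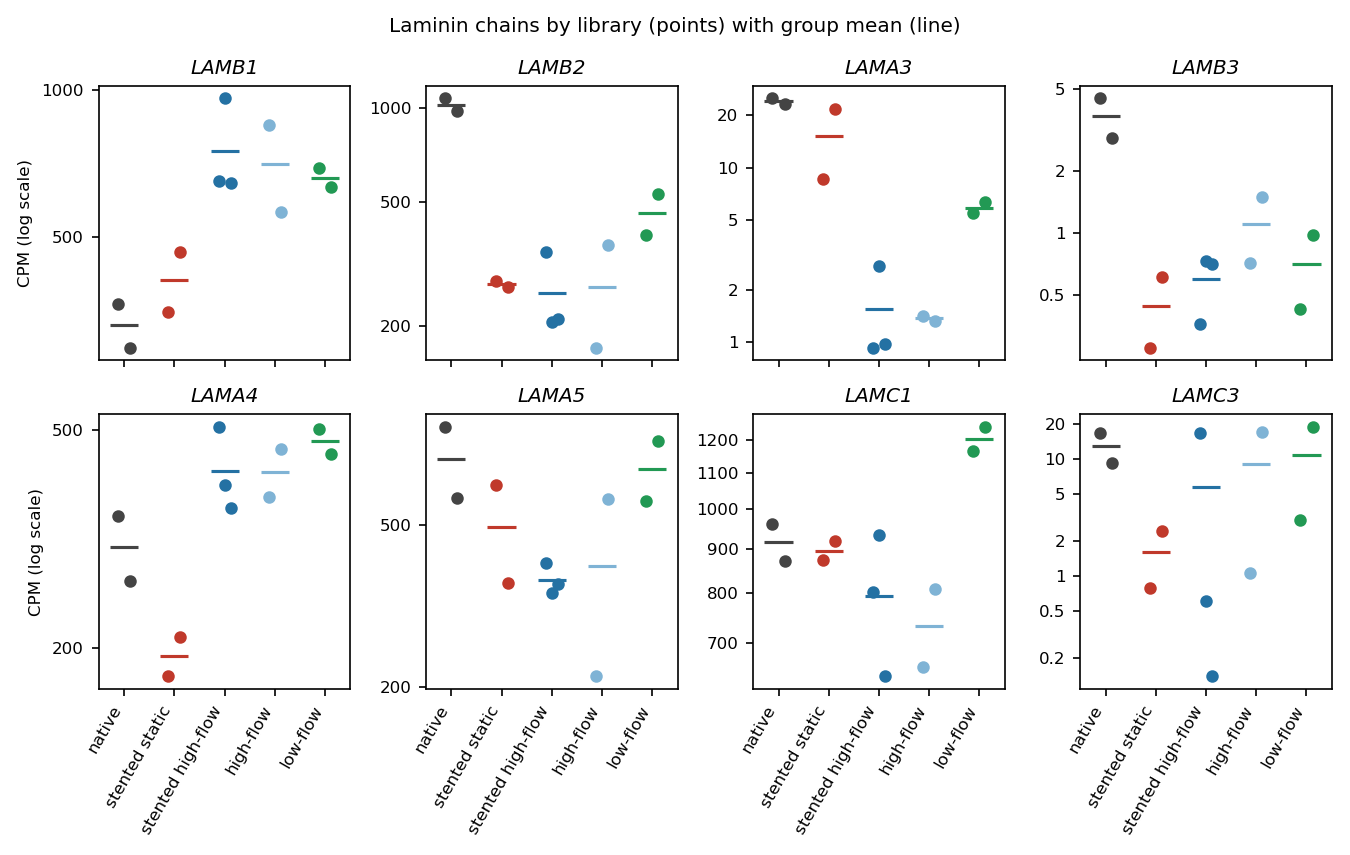
Normalised counts (CPM, log axis, scaled per panel) of 8 laminin chains in each library (points) of the 5 groups, with the group mean as a line. LAMB2 and LAMB3 are highest in native and LAMA3 is lowest in the 5 high-flow libraries (0.933 to 2.75 CPM), while LAMC3 is split within each of the 3 flow groups.

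LAMC1, LAMA5, LAMA4 and LAMA1 passed in no comparison. LAMC1, the gamma chain of most laminins, was at 961 and 871 CPM in native and 873 and 917 CPM in the stented static pair. It was at 803, 934 and 642 CPM with stent and flow, 658 and 809 CPM in high-flow, and 1165 and 1243 CPM in low-flow. Its 95% interval for stented high-flow against native was -0.76 to 0.35 on the log2 scale. LAMA5, the alpha chain of endothelial and smooth muscle laminin, had 874 and 585 CPM in native and 213 to 805 CPM in culture (log2 fold changes from -0.99 ± 0.41 to -0.08 ± 0.45), and without high-flow replicate 2 it passed in high-flow (-1.74, edgeR adjusted p = 0.0438). LAMA4, an endothelial and mesenchymal chain, had 348 and 265 CPM in native, 178 and 209.7 CPM in stented static and 359.8 to 507 CPM in the 7 flow libraries, which lay above native. LAMA1 was at 0.924 to 8.82 CPM.

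LAMC3, a gamma chain of restricted expression, was split within 3 cultured groups. It was at 16.7 and 9.15 CPM in native, 16.5 CPM in stented high-flow replicate 1, 17.0 CPM in high-flow replicate 2 and 18.7 CPM in low-flow replicate 2. The other 6 cultured libraries had 0.141 to 3.00 CPM. It passed in no comparison, but without stented high-flow replicate 1 its log2 fold change there was -5.11 (edgeR adjusted p = 0.0240).

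Of the 3 genes that encode no integrin subunit, ITGB1BP2 fell in all 4 cultured groups. ITGB1BP2 (chromosome X, 57316490 to 57321614), also called melusin, is a muscle protein that binds the ITGB1 tail. It had 34.3 and 23.8 CPM in native, 1.46 and 4.08 CPM in the stented static pair, 3.80, 1.51 and 1.36 CPM with stent and flow, 1.12 and 3.85 CPM in high-flow, and 3.90 and 5.52 CPM in low-flow. No cultured library came near native. The log2 fold changes, in the group order used for ITGA5, were -3.41 ± 0.73, -3.72 ± 0.63, -3.55 ± 0.73 and -2.62 ± 0.70 (edgeR adjusted p = 0.0140, 0.00225, 0.0102 and 0.0332). The stented high-flow call held in all 11 alternatives. The stented static one was lost on omitting stented static replicate 1 (0.0805), native replicate 1 (0.0780) or native replicate 2 (0.0514), and the high-flow one without native replicate 1 (0.0610) or high-flow replicate 1 (0.0764). The low-flow call was lost on omitting any 1 of its 4 libraries (0.0941 to 0.214). The higher native value is in replicate 1, the library with more cardiomyocyte marker RNA, and without it the log2 fold changes were -3.11, -3.43, -3.26 and -2.34. The cardiomyocyte sum was also lower in every cultured library than in either native one, and TNNT2, MYL3 and ACTC1 were called lower in all 4 groups. The part of these cells in the ITGB1BP2 values, with or without native replicate 1, was not tested. ITGB1BP1, a regulator of ITGB1 activation, ranged from 43.9 to 65.8 CPM, and ITGBL1 from 17.7 to 137 CPM, with no call for either.

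Stented high-flow against stented static compared flow with no flow in stented vessels. LAMA3 changed by -3.28 ± 0.52 (0.933 to 2.75 CPM against 8.61 and 21.8 CPM, edgeR adjusted p = 0.0115) and ITGB4 by -1.38 ± 0.32 (15.3 to 28.7 CPM against 69.4 and 41.5 CPM, 0.0475). These were 2 of 35 members (5.71%), both lower, where 2.85% of all genes tested were called, 1.18% higher and 1.67% lower. The ITGB4 call was lost without stented static replicate 1 (0.322) or without any 1 of the 3 stented high-flow libraries (0.0550 to 0.0830), and with a replicate block (0.122). Both were lost when only these groups were fitted (0.110 for LAMA3 and 0.210 for ITGB4). On the higher side ITGA11 (1.87 ± 0.47), ITGB1 (1.66 ± 0.44), LAMA4 (1.12 ± 0.27), ITGA10 (0.98 ± 0.26) and ITGA5 (0.89 ± 0.26) did not pass with edgeR (adjusted p = 0.0578, 0.0722, 0.0509, 0.0735 and 0.0952), and all 5 passed with DESeq2 (adjusted p = 0.00220, 0.00389, 0.000866, 0.00994 and 0.00917). The groups also differ in Y-linked transcripts and in a d suffix of the labels, which is 3 for both stented static libraries and 7 for stented high-flow replicate 3 and is not explained there.

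Low-flow against high-flow compared the flow marks without a stent. No member was called with edgeR, where 0.104% of all genes were (0.0261% higher and 0.0782% lower), and 7 had an unadjusted p under 0.05, each higher in low-flow. They were ITGA6 (1.48 ± 0.48), ITGA9 (1.10 ± 0.34), ITGB4 (1.19 ± 0.36), ITGB8 (1.58 ± 0.48), LAMA1 (2.24 ± 0.82), LAMA3 (2.10 ± 0.58) and LAMC1 (0.71 ± 0.28), with edgeR adjusted p from 0.481 to 0.584. The share of all genes under that unadjusted cut was not computed, so these 7 cannot be set against other genes. LAMA3 passed with DESeq2 (adjusted p = 0.0496), which called 1 member, and in a fit of this count table alone (edgeR adjusted p = 0.0393). The median log2 fold change over members was 0.42 and over all genes -0.00. For ITGA5 the difference was -0.11 with a 95% interval of -0.73 to 0.50.

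The stent itself was addressed by stented high-flow against high-flow, whose libraries sit in different count tables, so table and stent cannot be told apart. With edgeR 0 of 35 members and 0% of all genes were called, and DESeq2 also called 0 members. A single member had an unadjusted p under 0.05, which was ITGB4 at -0.75 ± 0.32. The share of all genes under that unadjusted cut was not computed here either. The 95% intervals of the log2 fold change were -0.19 to 0.94 for ITGA5, -0.75 to 0.36 for ITGA10, -0.85 to 0.71 for LAMB2 and -1.02 to 1.37 for LAMA3, and no value inside its interval is excluded.

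The partners of these receptors were read from 4 lists. Of 32 focal adhesion adaptors and kinases, which link integrin tails to actin, 1 higher and 10 lower were called in stented static, 1 and 10 with stent and flow, 2 and 11 in high-flow vessels and 2 and 8 in low-flow. Over all genes tested, higher and lower calls made up 5.54% and 7.19% in stented static, 10.4% and 13.9% with stent and flow, 5.94% and 8.86% for high-flow vessels and 5.03% and 7.38% for low-flow ones. The list's median log2 fold changes were -0.77, -0.54, -0.52 and -0.21, and those of all genes 0.02, 0.06, 0.02 and -0.00. Talin TLN1, which switches integrins on, changed by -1.36 ± 0.25, -1.14 ± 0.22, -1.33 ± 0.25 and -0.88 ± 0.25, and the actin crosslinker FLNA by -2.71 ± 0.38, -2.04 ± 0.33, -2.39 ± 0.38 and -1.51 ± 0.37, all called. Parvin PARVB, an adaptor in the complex with integrin-linked kinase, went the other way at 1.90 ± 0.49, 1.64 ± 0.46, 2.29 ± 0.50 and 1.85 ± 0.49, also called each time.

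Among 19 tested integrin ligands, 1 higher and 2 lower were called in stented static, 3 and 3 with stent and flow, 2 and 2 in high-flow vessels and 2 and 1 in low-flow (medians -0.52, 0.26, -0.05 and 0.10). Calls in either direction made up 12.7%, 24.3%, 14.8% and 12.4% of all genes in these 4 comparisons, and the all-gene medians were 0.02, 0.06, 0.02 and -0.00. Fibronectin FN1, the main ligand of the ITGA5 receptor, changed by 4.21 ± 0.70, 3.04 ± 0.68 and 3.78 ± 0.70 in the 3 flow groups, all called, and by 1.42 ± 0.64 in stented static, not called (edgeR adjusted p = 0.167). Vitronectin VTN, a ligand of ITGAV receptors, changed by -2.64 ± 0.55, -3.43 ± 0.49, -3.09 ± 0.56 and -3.54 ± 0.57, all called. Osteopontin SPP1 was called higher in all 4 comparisons. The other calls were EDIL3, higher with stent and flow, MFGE8, lower in stented static and with stent and flow, and FBLN5, lower with stent and flow and in high-flow.

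Of 17 basement membrane partners of laminin, 1 higher and 5 lower were called in stented static, 4 and 6 with stent and flow, 2 and 6 in high-flow vessels and 2 and 3 in low-flow (medians -1.17, -1.13, -1.27 and -0.09). The shares of all genes called there were 12.7%, 24.3%, 14.8% and 12.4%, with medians of 0.02, 0.06, 0.02 and -0.00. Nidogen NID2, which bridges laminin to collagen IV, rose by 1.56 ± 0.29, 1.20 ± 0.30 and 1.67 ± 0.30 in the 3 flow groups and was at 0.62 ± 0.30 in stented static (edgeR adjusted p = 0.190). Agrin AGRN, a laminin-binding proteoglycan, changed by -1.91 ± 0.36, -2.65 ± 0.32 and -1.75 ± 0.36 in the groups other than low-flow, all called, and was at -0.79 ± 0.35 in low-flow (edgeR adjusted p = 0.159).

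Among 10 tested laminin receptors other than integrins, 0 higher and 1 lower were called in stented static, 1 and 3 with stent and flow, 2 and 1 in high-flow vessels and 1 and 1 in low-flow (medians -0.80, -0.29, -0.30 and -0.07). All genes had 12.7%, 24.3%, 14.8% and 12.4% called and medians of 0.02, 0.06, 0.02 and -0.00. The LAMA5 receptor BCAM changed by -4.28 ± 0.67, -3.40 ± 0.76 and -2.90 ± 0.74 in the 3 flow groups, all called, and was at -2.38 ± 0.72 in stented static (edgeR adjusted p = 0.0532). Dystroglycan DAG1 was at -0.19 ± 0.25, 0.00 ± 0.23, -0.24 ± 0.25 and 0.24 ± 0.25, none called.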

How the data were processed

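Total RNA from 11 porcine coronary artery libraries was sequenced. The deposited values are raw gene counts per library in 2 tables made by the authors, whose native columns are identical and which were joined by gene identifier. The submitters' processing notes name Trimmomatic, FastQC, DESeq2 and the build Sscrofa11.1, without their settings. No aligner, no annotation release and no rule for reads shared by related genes is stated in the labels or files used. The authors' deposited tables of changed genes give log2 fold changes and were used only as a check. In the order stented static, stented high-flow, high-flow, then low-flow, they list 2, 7, 6 and 4 members, and 2, 7, 5 and 4 of these had a call with the same sign in the test below. A further 5, 7, 6 and 3 members were called in that test and are not listed by the authors.

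Symbols came from a table of gene identifiers (14857 of 25880 had one), and coordinates from RefSeq by symbol (35 of 35 members). The values of 1 member, which had no call, are not reported here, though it is part of all counts and medians. LAMA2, ITGA2B, ITGAD, ITGAX and ITGB3BP were not analysed here. ITGB6 (17 counts in all, 14 of them in 1 library) and LAMB4 (19 counts, at most 6 in a library) fell under the count rule, and ITGB7 and LAMB3 were the members nearest to it. Transcript lengths were not used, so levels of different genes were not ranked, and the part of the naming rule that needed them was dropped.

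The joint fit of 5 groups used edgeR 4.0.16 in R 4.3.3 (filterByExpr, TMM scaling, quasi-likelihood F-test, Benjamini-Hochberg adjustment over 15348 genes, threshold 0.05). Its common dispersion was 0.126, with 5.02 prior degrees of freedom beside 6 residual ones. The 95% intervals use the sum of both. Depth was 13496636 to 26785124 counts a library. In the labels native replicate 2 and stented high-flow replicate 1 carry the same number, 25, and no source says whether they share an animal. The script was tested on simulated data. Values in every library are given for members called in 2 or more comparisons with native or in any between cultured groups, and for further members picked once their values were known. DESeq2 1.42.0, RLE size factors, no filter, a replicate block, only the groups compared, 1 count table alone and leaving out each library served as alternatives. The members and lists were chosen with earlier results of these data known.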

Additional observations from a re-analysis of the deposited data

How the results depend on the processing

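No call of a member changed direction under any alternative. RLE size factors moved 1 member result across the threshold, and with DESeq2 17 became called and 0 were lost. DESeq2 called 7 members in stented high-flow against stented static instead of 2, and 1 in low-flow against high-flow instead of 0. Without the low-count filter 5 were called in stented high-flow against stented static. With only the groups compared, low-flow against native had 17 called instead of 7 and stented high-flow against stented static 0. With 1 count table, stented high-flow against stented static had 1 and low-flow against high-flow 1. The cause of these differences was not tested. The one-table fit was not possible for stented high-flow against high-flow. Leaving out single libraries gave 2 to 10 called members in stented static against native, 9 to 17 in stented high-flow, 4 to 10 in high-flow, 2 to 3 in low-flow, 1 to 5 in stented high-flow against stented static and 0 to 0 in the other comparisons. Where this leaves 1 library in a group, it is assumed to vary like the others.

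The labels do not say that replicate numbers mark shared animals, and differences between replicates 1 and 2 correlated at -0.35 to 0.18 between groups, so the numbers were not taken as pairs. With a replicate block the comparisons with native had 6 called members for low-flow, 9 for high-flow, 12 for stented high-flow and 6 for stented static, stented high-flow against stented static had 1, and the other comparisons had 0.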

Other observations

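Counts of ITGA10 over those of ITGA1 in the same library, a ratio chosen after the values were seen, were 0.125 and 0.0985 in native and 0.496 to 3.13 in the 9 cultured libraries. Counts of LAMA4 over LAMA5 were 0.398 and 0.453 in native and 0.283 and 0.580 in the stented static pair. The libraries with stent and flow had 1.26, 1.16 and 1.00, the high-flow pair 1.77 and 0.796 and the low-flow pair 0.875 and 0.562. ITGA5 over ITGA8 was 0.281 and 0.305 in native and 2.70 to 45.7 in culture, the highest in stented static replicate 1, where ITGA8 was at 20.5 CPM.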
